A study of Mus musculus with 50 samples.

Results

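The nuclear-encoded subunits of the mitochondrial respiratory chain and of ATP synthase were followed in mouse spleen after injection of CpG oligodeoxynucleotides (ODN). Members were taken by gene symbol, namely symbols beginning with Nduf, Uqcr, Cox4, Cox5, Cox6, Cox7, Cox8 or Atp5, together with Sdha to Sdhd. Of 193 such probes 181 had values, among 30750 probes with values in the whole table of 36607. These probes stood for 84 of 87 member genes, among 15311 named genes measured. Cox8b, Cox8c and Uqcrh had no value. Complex I was represented by 32 subunit genes and 7 assembly factor genes, complex II by 4, complex III by 7, complex IV by 17 and complex V, the ATP synthase, by 17.

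The respiratory chain sits in the inner membrane of the mitochondrion. Complex I takes electrons from NADH and complex II from succinate, and both hand them to ubiquinone. Complex III passes them on to cytochrome c and complex IV to oxygen, while protons are pumped across the membrane, and complex V uses the returning protons to make ATP. Most subunits are encoded in the nucleus and a few in mitochondrial DNA. In macrophages and dendritic cells, signalling through Toll-like receptors is known for shifting the balance between glycolysis and respiration, and the proliferation of lymphocytes is known to require mitochondrial growth.

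RNA of whole spleens from female mice carried the dye Cy5 and was hybridised with a Cy3-labelled Universal Mouse Reference RNA, a mixture of RNA from cell lines of several tissues. Each value is therefore a log2 ratio of spleen to that mixture, and levels of different genes were not set against each other. BALB/c mice received 400 µg of an equimolar mixture of CpG ODN 1555 and 1466 intraperitoneally and were examined after 0.5, 1, 3, 9, 24 or 72 h (4 arrays per time), or received 400 µg of control ODN 1612 and 1471 and were examined after 3 h (4 arrays), beside untreated BALB/c mice (6 arrays). TNF knock out mice (TNF-KO) and C57BL/6 control mice, both on the C57BL/6 strain, were examined 3 h after CpG ODN or untreated, with 4 arrays in each of the 4 groups. No age is given, and no dose for the C57BL/6 arrays. A second label field of the C57BL/6 and TNF-KO CpG arrays names untreated mice, and the array titles were followed. The labels of the 0.5 h arrays list the channels in the other order but with the same dyes, so all ratios were read in the same direction. The series text speaks of 4 independent experiments per time, and whether each array is a separate animal is not stated, so the p-values measure the spread between arrays.

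Tnf, the deleted gene, had log2 ratios of -0.44 to 0.43 in CpG-treated and -0.61 to 0.09 in untreated TNF-KO spleens, against 3.16 to 4.59 in CpG-treated and 0.58 to 0.78 in untreated C57BL/6 control spleens. The position of its probe relative to the deletion is not stated in these sources. Lists of 8 B-cell and 8 T-cell marker genes averaged 2.57 to 3.42 and 1.58 to 2.25 in untreated BALB/c spleens, above the mixture, which itself holds lymphocyte RNA. Arrays carried 27619 to 30590 values each, and no array's values repeated another's. Signal over background was not used here, so the depth behind a ratio is unknown. For the member genes, replicate 4 of the 24 h group stood apart from the other 3 arrays of its group, and the means by complex and the calls at 24 h are given with and without it, while values of single genes include it.

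The mean log2 ratio over the 77 members measured on all 50 arrays was level up to 9 h and then higher. It lay between -0.42 and -0.19 on the 6 untreated BALB/c arrays, between -0.27 and -0.10 0.5 h after CpG ODN, from -0.42 to -0.21 at 1 h, from -0.49 to -0.26 at 3 h and from -0.62 to -0.28 at 9 h. At 24 h it was 0.15, 0.22, 0.18 and -0.25, and at 72 h -0.01, 0.08, 0.07 and -0.14. All 4 arrays of 72 h and 3 of the 4 of 24 h lay above every untreated array, and replicate 4 of 24 h lay inside the untreated range. In a whole organ, more cells of a type rich in these transcripts and more transcript per cell cannot be told apart.

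**Figure D1:**
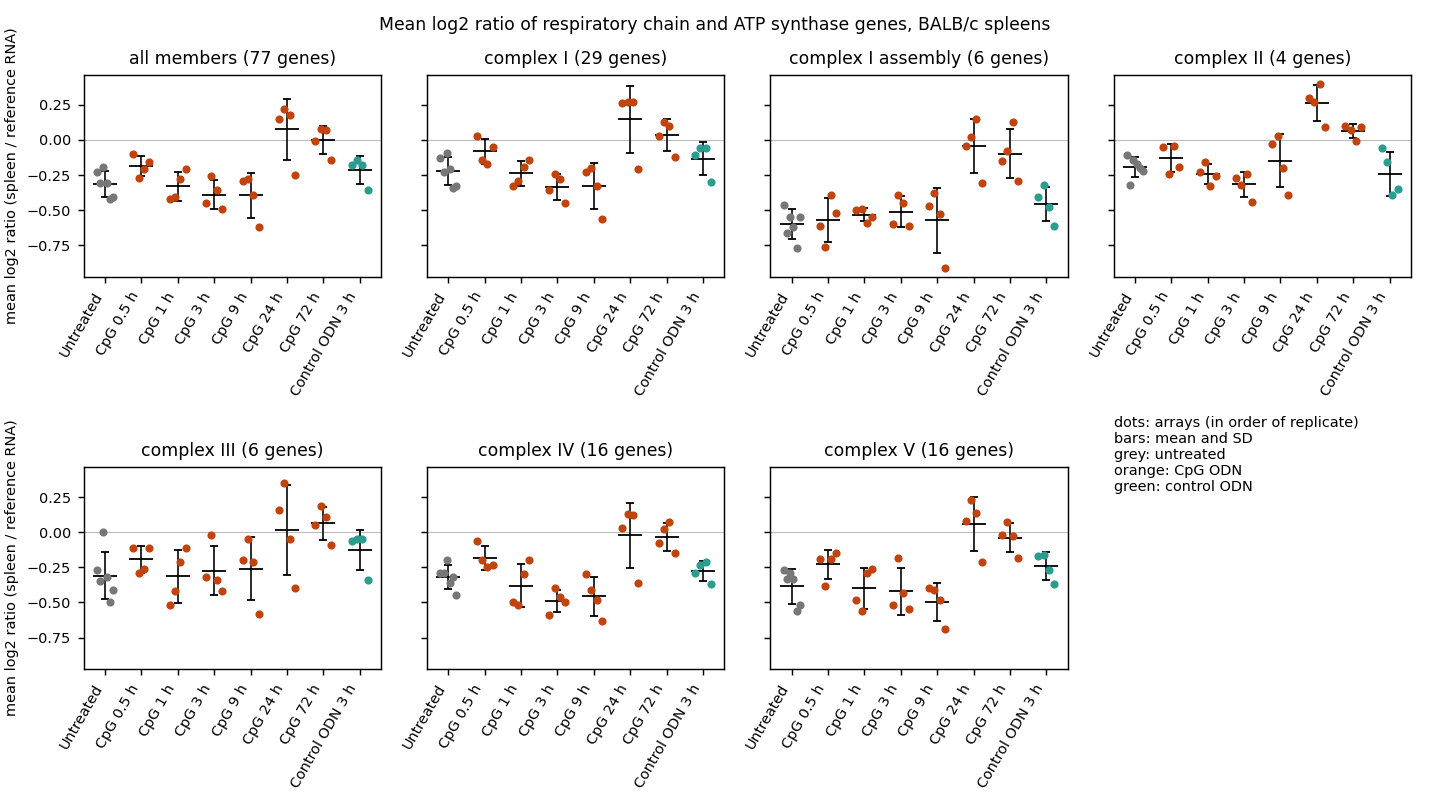
Mean log2 ratio (spleen over reference RNA, vertical axis) of the member genes measured on every array, for all members and by complex, in the BALB/c groups along the time course and after control ODN. Dots are arrays, bars mean and SD; at 24 h and 72 h the mean over all members was higher by 0.38 and 0.31 than in untreated spleens, and replicate 4 of 24 h is the low dot of its group.

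The difference of means at 24 h was 0.37 for complex I, 0.56 for its assembly factors, 0.46 for complex II, 0.32 for complex III, 0.30 for complex IV and 0.44 for complex V. Without replicate 4 of 24 h they were 0.49, 0.65, 0.52, 0.46, 0.41 and 0.53 in the same order. That array was singled out by its low member mean, so leaving it out raises the means by construction. At 72 h the differences were 0.26, 0.51, 0.26, 0.37, 0.28 and 0.35. Each complex, and the assembly factors, had a positive difference at both times, as the plot of means by complex shows. The complex IV mean includes Cox4i2, Cox6a2, Cox6b2 and Cox7a1, which are forms of other tissues described below. The complex II mean includes Sdha, for which no direction is given below, so the complexes are not ranked by these means. These means carry no test, because the members were chosen with results of these arrays known.

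At 24 h, 25 of 84 member genes (29.8%) were higher than in untreated BALB/c spleens at an adjusted p under 0.05 in limma, where 6.83% of all 15263 genes tested were higher. None was lower, against 1.62% of all genes. The median change of the members was 0.39 on the log2 scale and that of all genes 0.02, and 77 members against 8070 of all genes had a positive change. On all 4 arrays 13 members lay above all 6 untreated arrays, as did 6.22% of all genes. The count rested on single arrays: 42 members were called without replicate 4 of 24 h (where 14.4% of all genes were), 6 without replicate 3, 15 without replicate 2 and 16 without replicate 5 of the untreated group. Where no share of all genes stands beside a count, a shift of the members cannot be told from one of all genes. Without replicate 4 of 24 h all 25 stayed called, with changes of 0.55 to 1.26 and adjusted p of at most 0.026. Because that array was singled out by its low member mean, this is no independent support for the calls. The median change stayed between 0.32 and 0.53 when any 1 array of these groups was left out.

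**Figure D2:**
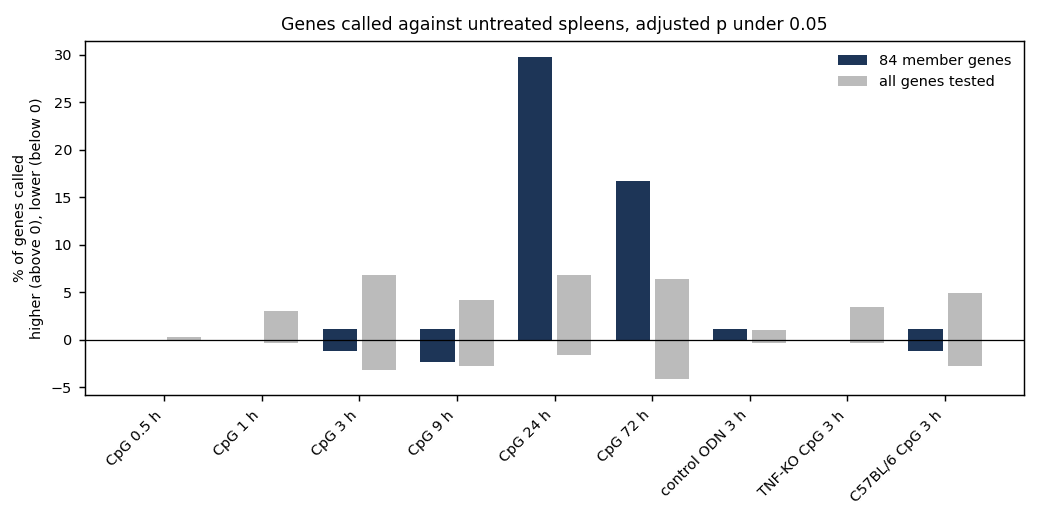
Share of genes called at an adjusted p under 0.05 against untreated spleens of the same strain and genotype (vertical axis, in percent, higher above 0 and lower below), for the 84 member genes and for all genes tested. At 24 h and 72 h 29.8% and 16.7% of the members were higher and none was lower; in the other comparisons at most 2 members were called in either direction.

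Complex I, the entry point for electrons from NADH, had 10 of its 32 subunit genes called higher at 24 h. The change was largest for Ndufa12, an accessory subunit, at 0.08, 0.12, 0.11 and -0.28 on the 24 h arrays, against -0.52, -0.79, -0.93, -0.93, -0.93 and -1.23 on the untreated arrays. All 24 h arrays were above all untreated ones, and the change was 0.89 ± 0.16 (SE; adjusted p = 0.00037, limma). Ndufv3, an accessory subunit of the NADH-binding arm, had 0.03, 0.15, 0.00 and -0.34 at 24 h, against -0.77, -1.04, -0.52, -0.67, -0.80 and -0.78 in untreated spleens. Those groups did not overlap either (0.72 ± 0.15, adjusted p = 0.0012), but a further Ndufv3 probe changed by -0.25, so the rise rests on 1 of its probes.

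The other 8 subunits of complex I called at 24 h were Ndufa7 (0.71, adjusted p = 0.011), Ndufc2 (0.69, 0.014), Ndufs5 (0.66, 0.013), Ndufa8 (0.63, 0.010), Ndufv2 (0.61, 0.029), Ndufb5 (0.57, 0.013), Ndufa5 (0.57, 0.046) and Ndufs4 (0.52, 0.025). Ndufv2 is a catalytic iron-sulphur subunit, and Ndufs4 is an accessory subunit whose loss causes a fatal brain disease in mice. Of the remaining core subunits, Ndufs1 changed by 0.20, Ndufs3 by 0.39, Ndufs7 by 0.39, Ndufs8 by 0.28 and Ndufv1, which binds the flavin, by 0.14, with adjusted p from 0.13 to 0.66. Ndufa13 and Ndufb11 had negative changes at 24 h, of -0.21 and -0.33, that did not pass the test, and a second Ndufa13 probe had 0.35.

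The assembly factors, which build complex I and do not stay in it, had 3 of 7 genes called higher at 24 h. Ndufaf6 had log2 ratios of -0.23, -0.05, 0.16 and -0.45 on the 24 h arrays, against -1.28, -1.32, -1.26, -1.09, -1.46 and -1.40 on the untreated arrays. The groups lay far apart, with a change of 1.16 ± 0.19 or 2.23-fold (adjusted p = 5.8e-05). Ndufaf5, which hydroxylates a core subunit during assembly, had -0.13, 0.08, 0.06 and -0.45 at 24 h, against -0.62, -1.04, -0.78, -0.92, -1.04 and -0.89 in untreated spleens, again without overlap (0.77 ± 0.14, adjusted p = 0.00047). Ndufaf7, a methyltransferase of complex I assembly, rose by 0.60 ± 0.18 (adjusted p = 0.034).

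Complex II, which is also the succinate dehydrogenase of the citric acid cycle, had 2 of 4 genes called at 24 h. Sdhd, a membrane anchor, was at 0.05, 0.51, 0.59 and -0.17 at 24 h, against -0.20, -0.48, -0.54, -0.38, -0.58 and -0.23 in untreated spleens (0.65 ± 0.14, adjusted p = 0.0017). Sdhb, the iron-sulphur subunit, averaged 0.45 ± 0.17 (SD, n = 4) at 24 h and -0.36 ± 0.23 (SD, n = 6) in untreated spleens, a change of 0.81 ± 0.21 (SE; adjusted p = 0.013), and its second probe changed by 0.52. Neither gene's 24 h arrays overlapped the untreated ones. Sdhc, the other anchor, changed by 0.49 (adjusted p = 0.056) and the catalytic Sdha by -0.12 (adjusted p = 0.76).

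In complex III 1 of 7 genes was called at 24 h, the small subunit Uqcr10 (0.52 ± 0.16, adjusted p = 0.043). The next smallest p belonged to the core subunit Uqcrc2, at 0.34 (adjusted p = 0.15). In complex IV 4 of 17 were called at 24 h. Cox5a, a nuclear-encoded subunit on the matrix side, had the smallest p of all members, with 0.61, 0.93, 1.01 and 0.32 at 24 h, against -0.35, -0.33, -0.28, -0.39, -0.22 and -0.57 in untreated spleens. All 4 arrays of 24 h were high, and the change was 1.07 ± 0.15 or 2.11-fold (95% interval 0.76 to 1.39 on the log2 scale, adjusted p = 7.7e-06). Cox7b (0.65, adjusted p = 0.021), Cox7a2 (0.57, 0.022) and Cox8a (0.50, 0.031) followed.

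In ATP synthase all 17 genes had a positive change at 24 h and 5 were called. Atp5o, the stalk subunit that ties the catalytic head to the stator, averaged 0.44 ± 0.49 (SD, n = 4) at 24 h and -0.40 ± 0.17 (SD, n = 6) in untreated spleens, a change of 0.84 ± 0.21 (SE; adjusted p = 0.0089). Its replicate 3 of 24 h read 1.12 and the other 3 arrays read -0.05 to 0.36. The other 4 were Atp5g3, a gene for the c subunit of the rotating ring (0.54, adjusted p = 0.042), Atp5j2 (0.52, 0.037), the stator subunit Atp5pb (0.50, 0.043) and the epsilon subunit Atp5e of the central stalk (0.49, 0.042).

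**Figure D3:**
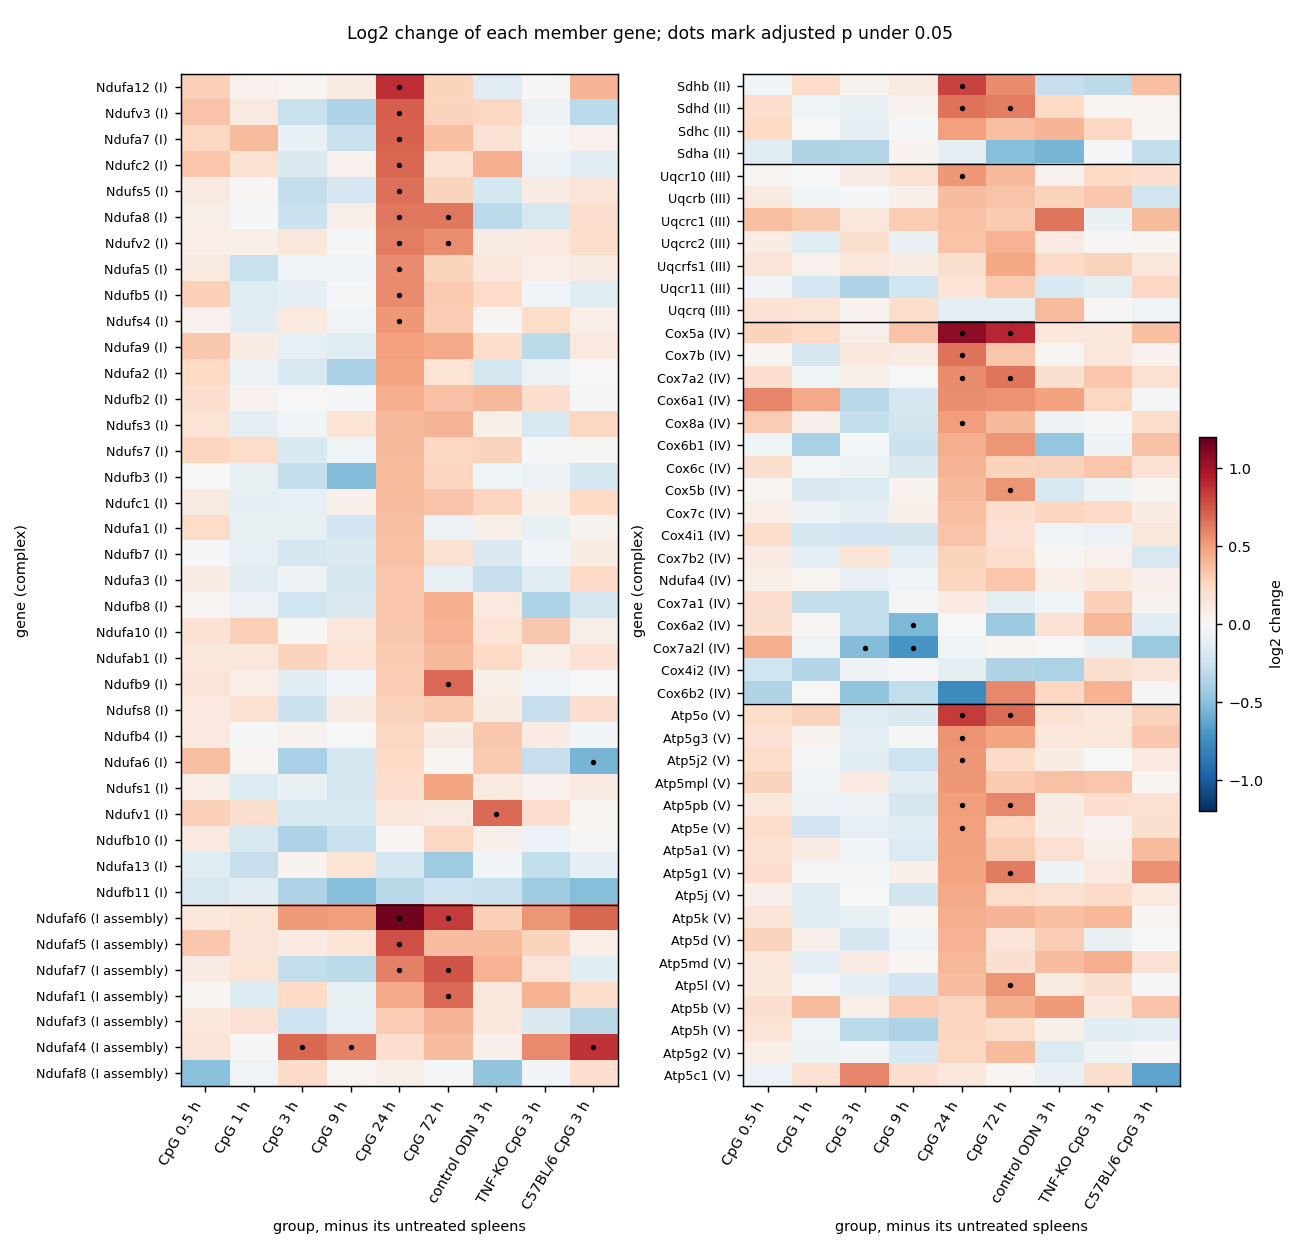
Log2 change of each of the 84 member genes (rows, grouped by complex and ordered by the 24 h change) in each treated group against untreated spleens of the same strain and genotype (columns); red is higher, blue lower, and dots mark an adjusted p under 0.05. The 24 h and 72 h columns are red in nearly every row, while the 3 h and 9 h columns are mixed and hold dots for Ndufaf4, Cox7a2l and, at 9 h, Cox6a2.

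At 72 h, 14 members (16.7%) were higher than in untreated spleens, where 6.43% of all genes were, and none was lower, against 4.15%. The median change was 0.32 for the members and 0.03 for all genes, and 16 members lay above every untreated array on all 4 arrays, as did 7.01% of all genes. Without replicate 3 of 72 h 5 members were called, and without replicate 4 23 were called. With array weights 60 were called, 56 higher and 4 lower, where 37.1% of all genes were called. By complex, the calls at 72 h were 3 of 32 subunits of complex I, 3 of its 7 assembly factors, 1 of 4 in complex II, 0 of 7 in complex III, 3 of 17 in complex IV and 4 of 17 in complex V.

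Cox5a again had the smallest p at 72 h, with 0.49, 0.55, 1.10 and 0.07 against the untreated values given above (0.91 ± 0.15, adjusted p = 0.00019). Sdhd was nearly equal on the 4 arrays of 72 h, at 0.19, 0.21, 0.21 and 0.22 (0.61 ± 0.14, adjusted p = 0.0041). Ndufaf6 had -0.65, -0.58, 0.20 and -0.84 at 72 h, each above every untreated array (0.84 ± 0.19, adjusted p = 0.0043). For Cox5a and Ndufaf6, replicate 3 of 72 h was the highest array and replicate 4 the lowest.

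Ndufb9, an accessory subunit of complex I, had -0.43, -0.19, 0.20 and -0.58 at 72 h, against -0.97, -0.87, -0.84, -1.02, -0.94 and -0.94 in untreated spleens (0.68 ± 0.16, adjusted p = 0.0065), and at 24 h its change was 0.30 (adjusted p = 0.26). Ndufaf7 had -0.68, -0.52, -0.39 and -1.05 at 72 h, against -1.35, -1.73, -1.05, -1.33, -1.59 and -1.38 in untreated spleens (0.75 ± 0.18, adjusted p = 0.0084). Both genes were high on all 4 arrays of 72 h, and the lowest Ndufaf7 array of 72 h was level with the highest untreated one to 2 decimals. The further calls at 72 h were Ndufaf1 (0.68, adjusted p = 0.015), Atp5o (0.67, 0.036), Cox7a2 (0.64, 0.010), Ndufa8 (0.63, 0.011), Atp5g1 (0.62, 0.010), Atp5pb (0.58, 0.017), Ndufv2 (0.56, 0.041), Cox5b (0.53, 0.028) and Atp5l (0.53, 0.048). Sdhb had 0.57 at 72 h (adjusted p = 0.075). In complex III the smallest p belonged to Uqcrc2 (0.42, adjusted p = 0.056) and the Rieske iron-sulphur subunit Uqcrfs1 (0.46, 0.074).

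The comparisons at 24 h and 72 h share the untreated arrays, so calls in common are to be looked for in any set of genes. The same overlap over all genes is not given, so that of the members cannot be told from it. Of their called members 9 were common, which is 36.0% of the 25 at 24 h and 64.3% of the 14 at 72 h, namely Ndufv2, Ndufa8, Ndufaf6, Ndufaf7, Sdhd, Cox5a, Cox7a2, Atp5o and Atp5pb. Ndufa12, called at 24 h, changed by 0.27 at 72 h (adjusted p = 0.28) on arrays of -0.38, -0.47, -1.04 and -0.57, so its values at 72 h overlapped those of untreated spleens.

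**Figure D4:**
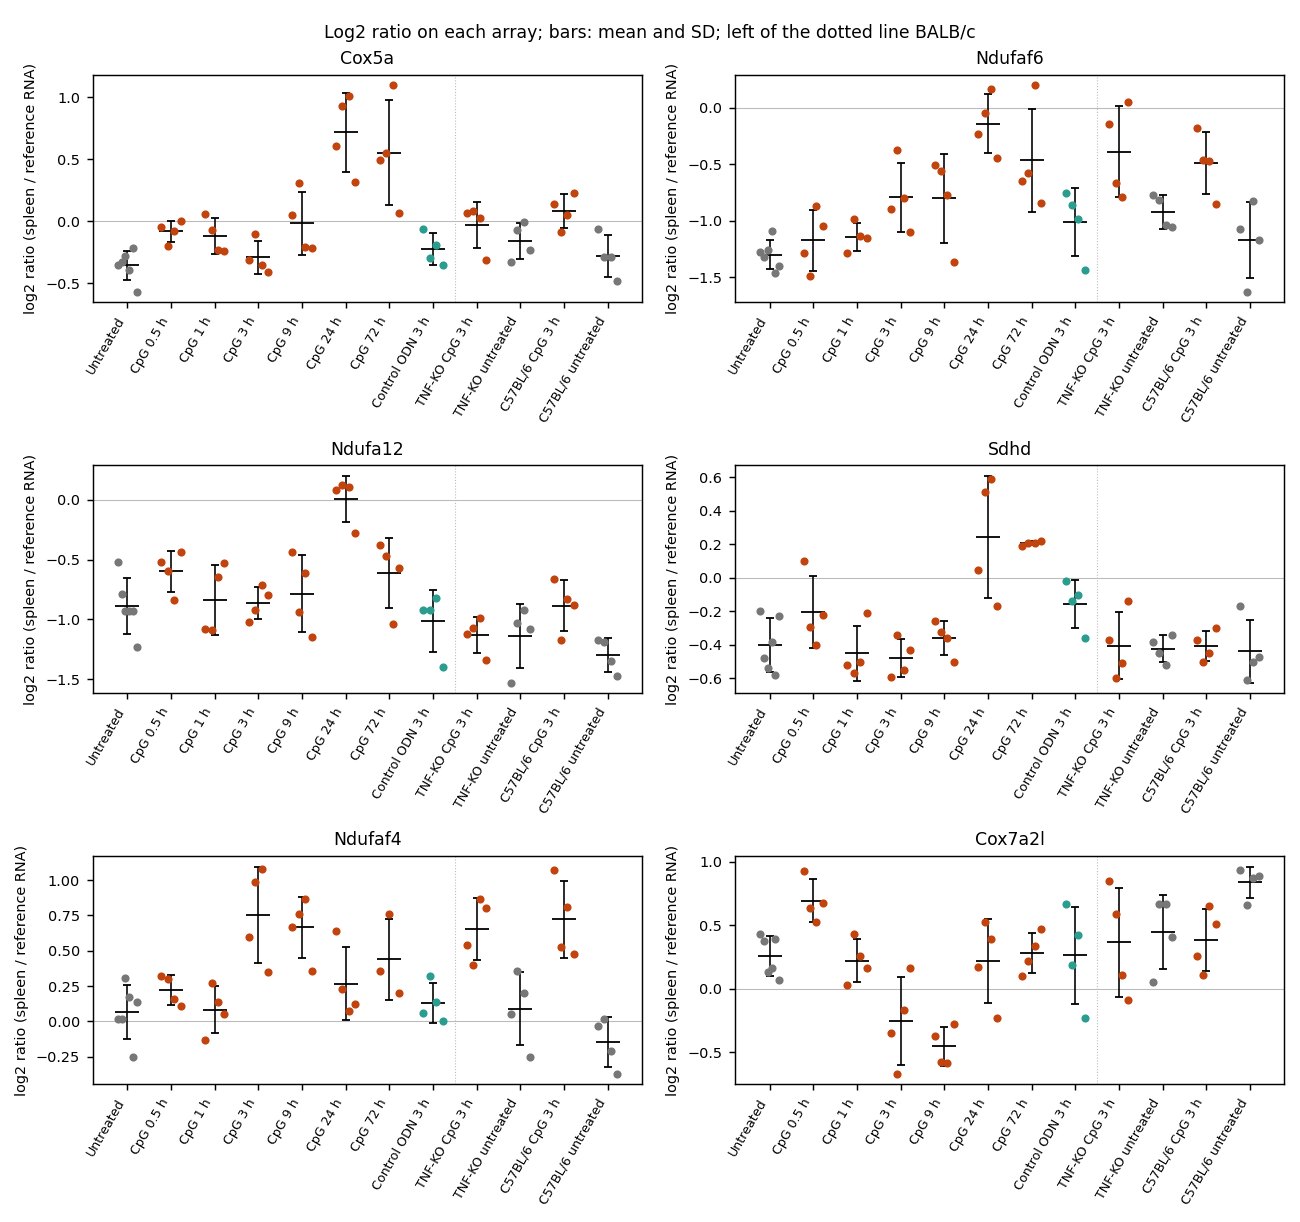
Log2 ratio of 6 member genes on every array (vertical axis; scales differ between panels), with BALB/c groups left and C57BL/6 groups right of the dotted line; dots are arrays and bars mean and SD. Cox5a, Ndufaf6, Ndufa12 and Sdhd were highest at 24 h or 72 h, Ndufaf4 was high at 3 h in BALB/c, C57BL/6 control and TNF-KO spleens, and Cox7a2l was low at 3 h and 9 h.

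The array numbers of the mAdb database, which the labels give, fall into runs, separated by gaps of over 10, and runs follow the groups closely. Whether a run is a batch of printing, hybridisation or filing is not stated. Untreated BALB/c arrays lie in the first and second runs, the 9 h arrays and replicates 2 to 4 of 24 h in the third, the 72 h and control ODN arrays together in the fourth, and replicate 1 of 24 h alone in the fifth. For 72 h and control ODN against untreated spleens, run and treatment cannot be told apart. With run as a term, which ties 24 h to untreated arrays only through the 3 h arrays, limma called 0 of 84 members at 24 h, and the median change was 0.23 against 0.07 for all genes. In that fit Cox5a had 1.03 (adjusted p = 0.097), Ndufaf6 0.89 (0.24), Ndufa12 0.81 (0.23) and Sdhd 0.63 (0.36) at 24 h. Within the third run, 24 h (3 arrays) against 9 h (4 arrays) gave a median of 0.50 for the members and 0.05 for all genes, and 1 member was called, where 0.533% of all genes were called higher: Ndufv3 (1.07 ± 0.20, adjusted p = 0.026). At 9 h Ndufv3 itself lay lower than in untreated spleens (-0.37, adjusted p = 0.14), and its other probe is not given for this comparison. Without replicate 4 of 24 h 17 were called there, and with any other array left out 0. Cox5a and Atp5o had 0.77 and 1.04 in that comparison (adjusted p = 0.13 and 0.10). Within the run of 72 h and control ODN, the median change of 72 h over control ODN was 0.21 for the members and -0.04 for all genes, and 2 members were called, where 1.35% of all genes were higher: Ndufa8 (0.94 ± 0.18, adjusted p = 0.026) and Cox6b1 (0.99 ± 0.24, adjusted p = 0.045). Against untreated spleens, control ODN itself had -0.31 for Ndufa8 (adjusted p = 0.25) and -0.46 for Cox6b1 (0.18), so part of both differences lies in low control ODN values. Cox6b1 at 72 h against untreated spleens had 0.53 (adjusted p = 0.084) and was not called. Without replicate 4 of control ODN 7 were called within the fourth run, without replicate 4 of 72 h 2, and without any other array of that run 0. These comparisons were added after the data had been examined.

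Promoters are shown for Cox5a, Sdhd, Atp5o and Ndufa8, the 4 of smallest adjusted p at 24 h among the members called at both times that have a promoter entry, and for Ndufaf4, the early one described next; they were chosen after the values were seen. RefSeq (GRCm38.p6) gave 75 promoters for 70 of the 84 member genes, each from 250 bases before to 50 after the annotated start, written 5′ to 3′ on the gene's strand. Capitals mark matches, on either strand, of letters that stand for the nuclear respiratory factor NRF1 (GCGCANGCG) and for ETS factors such as GABP (CCGGAAG), both known regulators of respiratory genes; no stretch shown holds the YY1 letters (AAGATGGCG) that were also searched. A match of the NRF1 letters can overlap one on the other strand.
Cox5a, chr9:57520982-57521281, plus strand: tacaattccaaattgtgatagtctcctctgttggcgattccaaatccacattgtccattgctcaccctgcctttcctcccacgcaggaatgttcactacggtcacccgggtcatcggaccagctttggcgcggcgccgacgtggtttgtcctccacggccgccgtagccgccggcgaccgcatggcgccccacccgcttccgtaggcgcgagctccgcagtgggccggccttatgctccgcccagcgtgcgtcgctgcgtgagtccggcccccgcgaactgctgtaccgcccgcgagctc
Sdhd, chr9:50603800-50604099, minus strand: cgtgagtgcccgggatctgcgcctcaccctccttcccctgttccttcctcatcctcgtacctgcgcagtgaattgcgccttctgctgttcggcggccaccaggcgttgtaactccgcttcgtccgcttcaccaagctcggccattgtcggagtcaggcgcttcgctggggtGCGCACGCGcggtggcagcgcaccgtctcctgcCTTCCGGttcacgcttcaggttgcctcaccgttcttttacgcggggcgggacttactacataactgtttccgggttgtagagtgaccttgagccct
Atp5o, chr16:91931581-91931880, minus strand: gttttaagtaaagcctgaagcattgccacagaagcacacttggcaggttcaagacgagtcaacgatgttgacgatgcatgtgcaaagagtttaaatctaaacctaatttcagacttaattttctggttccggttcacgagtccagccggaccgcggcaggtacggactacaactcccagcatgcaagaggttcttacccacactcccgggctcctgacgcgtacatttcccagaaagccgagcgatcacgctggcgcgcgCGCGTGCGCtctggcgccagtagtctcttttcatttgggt
Ndufa8, chr2:36049289-36049588, minus strand: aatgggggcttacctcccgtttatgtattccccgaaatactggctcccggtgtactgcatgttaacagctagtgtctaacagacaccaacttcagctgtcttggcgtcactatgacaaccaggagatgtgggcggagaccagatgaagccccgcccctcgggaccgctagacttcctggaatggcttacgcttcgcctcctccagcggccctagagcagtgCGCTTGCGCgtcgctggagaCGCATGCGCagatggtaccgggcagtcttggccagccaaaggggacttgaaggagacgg
Ndufaf4, chr4:24897833-24898132, plus strand: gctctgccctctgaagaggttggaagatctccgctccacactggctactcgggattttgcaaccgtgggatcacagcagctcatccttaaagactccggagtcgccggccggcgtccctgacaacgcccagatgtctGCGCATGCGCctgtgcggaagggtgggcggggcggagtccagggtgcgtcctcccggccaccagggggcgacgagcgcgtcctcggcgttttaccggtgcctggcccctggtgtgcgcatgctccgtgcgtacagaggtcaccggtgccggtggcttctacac
The NRF1 letters stood in 28.0% of the members' promoters, against 6.25% of all 32851 promoters in the table, the ETS letters in 22.7% against 8.86%, and the YY1 letters in 9.33% against 1.40%. Any of these stood in 49.3% against 14.8%. Of the 8 promoters of members called at both 24 h and 72 h, 3 held the NRF1 letters (Sdhd, Ndufa8 and Atp5o), 1 of them the ETS letters too (Sdhd), and none the YY1 letters. Cox5a, with the smallest p at both times, had no match in its window, nor had Cox7a2, Ndufaf7, Ndufv2 and Atp5pb, which are not shown. A match is a string of letters and does not show a bound site.

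The members called at 3 h or 9 h against untreated spleens were Ndufaf4, Cox7a2l and Cox6a2, and none of them was called at 24 h or 72 h. With so few genes, and without the same share over all genes, this does not set early members apart from late ones. At 0.5 h limma called 0 of 84 members, where 0.256% of all genes were called, and 6 had an unadjusted p under 0.05. Of the members 73 had a positive change, with a median of 0.14 where that of all genes was 0.07. At 1 h 0 were called (3.3% of all genes; 3 members with an unadjusted p under 0.05), and the median was -0.01. Within the first array run alone, which holds replicates 1 and 2 of 1 h and 5 untreated arrays, 4 members were called at 1 h, where 11.2% of all genes were. Ndufa7 was higher there (0.67, adjusted p = 0.039), and Cox7a1 (-0.83, 0.017), Cox6b1 (-0.78, 0.027) and Uqcr11 (-0.66, 0.028) were lower, in a fit added after the data had been examined.

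At 3 h 1 member was higher, where 6.82% of all genes were, and 1 was lower, where 3.14% were. The one that rose was Ndufaf4, an assembly factor of complex I, at 0.60, 0.99, 1.08 and 0.35 on the 3 h arrays, against 0.02, 0.02, 0.31, 0.17, -0.25 and 0.14 on the untreated arrays. All 4 were above the untreated range (0.69 ± 0.15 or 1.61-fold, adjusted p = 0.002). The one that fell was Cox7a2l, which helps join complexes III and IV into supercomplexes, at -0.35, -0.67, -0.17 and 0.16, against 0.43, 0.38, 0.13, 0.16, 0.39 and 0.07 in untreated spleens (-0.52 ± 0.17, adjusted p = 0.04), with replicate 4 of 3 h inside the untreated range. Without any 1 of replicates 1 to 3 of 3 h or of untreated replicates 1, 2 and 5, Ndufaf4 was the one member called.

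At 9 h the same genes were called in the same directions. Ndufaf4 had 0.67, 0.76, 0.87 and 0.36 (0.60 ± 0.15, adjusted p = 0.011), where 4.19% of all genes were higher, and Cox7a2l had -0.37, -0.58, -0.59 and -0.28 (-0.71 ± 0.17 or 1.64-fold lower, adjusted p = 0.0043), where 2.77% were lower. All 9 h arrays lay above the untreated ones for Ndufaf4 and below them for Cox7a2l. The remaining call at 9 h was Cox6a2, the heart and skeletal muscle form of Cox6a, at -2.03, -2.59, -2.32 and -2.76, against -1.89, -1.96, -1.78, -2.18, -1.39 and -2.11 in untreated spleens (-0.54 ± 0.17, adjusted p = 0.043), with overlap. The Cox6a2 call was lost in 11 of 18 other settings, and with run as a term its change was -0.07 (adjusted p = 0.98). Without replicate 3 of 9 h Cox7a2l was the one member called. With run as a term the changes at 3 h were 0.66 for Ndufaf4 (adjusted p = 0.14) and -0.31 for Cox7a2l (0.60), and at 9 h 0.53 (0.64) and -0.25 (0.91), so these calls were lost and Ndufb11 alone was called, as lower, at both times. At 24 h both early genes were near the untreated level, at 0.20 for Ndufaf4 (adjusted p = 0.47) and -0.04 for Cox7a2l (adjusted p = 0.91). At 72 h Ndufaf4 had 0.37 on 3 arrays (95% interval 0.03 to 0.71, adjusted p = 0.14, limma), short of the threshold, and Cox7a2l had 0.02 (0.94). A return of Ndufaf4 to the untreated level is therefore not shown.

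The smallest p within each complex at 3 h and 9 h otherwise stayed above the threshold. In complex I these were Ndufa6 (-0.39, adjusted p = 0.15) and Ndufb10 (-0.37, 0.19) at 3 h, and Ndufb3 (-0.52, 0.061) and Ndufb11 (-0.51, 0.13) at 9 h. At 3 h they were Sdha (-0.35, 0.32) and Sdhc (-0.11, 0.79) in complex II, Uqcr11 (-0.36, 0.36) and Uqcrc2 (0.19, 0.56) in complex III, Cox8a (-0.29, 0.29) in complex IV, and Atp5h (-0.32, 0.21) and Atp5c1 (0.59, 0.22) in complex V. At 9 h they were Sdhb (0.11, 0.87) and Sdhd (0.04, 0.93), Uqcrc1 (0.30, 0.50) and Uqcrq (0.21, 0.53), and Atp5h (-0.37, 0.14) and Atp5j2 (-0.25, 0.46), each with its adjusted p. Among the assembly factors Ndufaf6, called at 24 h and 72 h, already had 0.51 at 3 h, short of the threshold (adjusted p = 0.089). Its 3 h change was 0.69 in C57BL/6 control mice (adjusted p = 0.058) and 0.53 in TNF-KO mice (0.24). The median change over all members in BALB/c was -0.08 at 3 h and -0.04 at 9 h, where that of all genes was -0.03 and -0.02.

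The control ODN mixture was given at the same dose as the CpG ODN. Against untreated spleens it gave 1 member higher, where 1.05% of all genes were: the flavin-binding core subunit Ndufv1, at 0.29, 0.21, 0.56 and -0.35, against -0.76, -0.64, -0.44, -0.36, -0.65 and -0.15 (0.68 ± 0.17, adjusted p = 0.043). The groups overlapped through replicate 4 of control ODN, and the call was lost without any 1 of replicates 1 to 3 of control ODN or of untreated replicates 1, 2, 5 and 6, while 7 members were called without replicate 4 of control ODN and 2 without untreated replicate 3. The median change was 0.11 for the members and 0.09 for all genes.

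CpG ODN against control ODN at 3 h gave 1 member higher, where 7.4% of all genes were, and 9 lower, where 10.9% were, so the share called lower was near that of all genes. All control ODN arrays lie in the fourth run and the CpG arrays of 3 h in the second run and the third, so run and treatment cannot be told apart here either. The median was -0.21 for the members and -0.08 for all genes. The member higher was Ndufaf4, at the 3 h values given above against 0.06, 0.32, 0.14 and 0.00 after control ODN (0.63 ± 0.17, adjusted p = 0.0089). Among those lower, Ndufv1 had -0.79, -0.57, -0.63 and -0.75 after CpG ODN, against the 4 control ODN values just given (-0.86 ± 0.19, adjusted p = 0.0014). CpG ODN at 3 h changed Ndufv1 by -0.19 against untreated spleens (adjusted p = 0.63).

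Ndufa6, an accessory subunit of complex I, had -0.84, -0.61, -1.08 and -1.11 after CpG ODN, against -0.19, -0.10, -0.01 and -0.52 after control ODN (-0.70 ± 0.18, adjusted p = 0.0068), without overlap. Ndufaf7 had -1.81, -1.62, -1.64 and -1.72, against -0.99, -0.90, -0.68 and -1.37 (-0.72 ± 0.20, adjusted p = 0.011), and Ndufv3 had -1.07, -1.07, -1.13 and -0.85, against -0.49, -0.69, -0.08 and -0.80 (-0.52 ± 0.16, adjusted p = 0.022). Neither pair of groups overlapped, but the second Ndufv3 probe had 0.03 and the other Ndufaf7 probes -0.32 and -0.16. The further genes were Cox6a1 (-0.80, adjusted p = 0.035), Ndufc2 (-0.61, 0.032), Sdhc (-0.52, 0.037), Cox7a2l (-0.52, 0.042) and Atp5d (-0.50, 0.045). The count of 10 moved when single arrays were left out, to 3 without replicate 3 of control ODN, 4 without its replicate 1, 15 without its replicate 4, and 5 without replicate 1 or 3 of CpG ODN at 3 h.

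In C57BL/6 control mice, CpG ODN at 3 h gave 1 member higher, where 4.95% of all genes were, and 1 lower, where 2.75% were. Ndufaf4 had 1.07, 0.53, 0.81 and 0.48 after CpG ODN, against -0.03, 0.02, -0.21 and -0.37 in untreated spleens, without overlap (0.87 ± 0.18 or 1.82-fold, adjusted p = 0.0054). Ndufa6 had -0.91, -1.09, -0.88 and -0.68, against -0.01, -0.24, -0.43 and -0.64, without overlap but with arrays close to each other (-0.56 ± 0.16, adjusted p = 0.039). Cox7a2l, which fell in BALB/c, had 0.26, 0.11, 0.65 and 0.51, against 0.94, 0.66, 0.87 and 0.89 (-0.45, adjusted p = 0.21), so that each CpG array there was lower too. Without any 1 of CpG replicates 1 to 3 or untreated replicates 1 and 2, Ndufaf4 alone was called, and without CpG replicate 4 Ndufaf6 joined, for 3 in all. With run as a term Ndufaf4 stayed called in this strain (0.97, adjusted p = 0.007) and Ndufa6 did not (-0.47, 0.11).

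In TNF-KO mice limma called 0 of 84 members after CpG ODN, where 3.77% of all genes were called, with 3 at an unadjusted p under 0.05. Ndufaf4 there had 0.54, 0.40, 0.87 and 0.80, against 0.05, 0.36, 0.20 and -0.25 in untreated TNF-KO spleens, with every treated array higher (0.57, adjusted p = 0.11). The difference of the Ndufaf4 responses, TNF-KO minus C57BL/6 control, was -0.30 (95% interval -0.84 to 0.24, adjusted p = 0.84). For that difference of responses 0 members were called, where 0.0268% of all genes were, with 1 at an unadjusted p under 0.05, namely Sdhb (-0.68 ± 0.22, adjusted p = 0.46). Between the genotypes 0 members were called among untreated spleens (0.595% of all genes, 3 members at an unadjusted p under 0.05) and 0 among CpG-treated spleens (0.368% of all genes, 2 members). The mean over all members was -0.22, -0.26, -0.23 and -0.10 in CpG-treated and -0.30 to -0.22 in untreated TNF-KO spleens, and -0.41 to -0.13 in CpG-treated and -0.49 to -0.16 in untreated C57BL/6 control spleens.

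The difference of the 3 h responses, C57BL/6 control minus BALB/c, gave 0 called members, where 0.453% of all genes were called, and 4 had an unadjusted p under 0.05. Ndufaf4 differed by 0.18 (95% interval -0.28 to 0.64, adjusted p = 0.96). The most negative difference belonged to Atp5c1, the gamma subunit in the central stalk of ATP synthase, at -1.22 (adjusted p = 0.42), and its second probe had 0.15. Times after 3 h were measured in BALB/c mice alone, so the later rise has no counterpart in the other strain or genotype here.

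Complex IV has forms of several subunits that other tissues use, and the broadly expressed forms were compared with them as a description at 24 h and 72 h. The broad forms changed by 0.34 and 0.17 (Cox4i1), 0.56 and 0.54 (Cox6a1), 0.44 and 0.53 (Cox6b1), 0.57 and 0.64 (Cox7a2), 0.65 and 0.33 (Cox7b) and 0.50 and 0.39 (Cox8a). The forms of other tissues gave 0 of 5 calls at either time. Of all genes, 6.83% and 6.43% were higher and 1.62% and 4.15% lower at 24 h and 72 h. Among 5 genes, 0 calls is therefore no contrast with the broad forms. Cox4i2, known from lung, had -0.11 and -0.36, and the muscle forms Cox6a2 and Cox7a1 had 0.00 and -0.44 and 0.10 and -0.12. Of the forms known from testis, Cox7b2 had 0.27 and 0.21, and Cox6b2 had -0.76 (adjusted p = 0.069) and 0.58 on 1 probe and -0.12 and -0.52 on its other, so its direction is uncertain. Ndufa4, named for complex I and now counted with complex IV, had 0.26 and 0.33.

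Sdha, the flavoprotein of complex II, was read by 73 probes, and they did not move together. The platform annotation ties 43 of them to a cDNA record alone, 29 to that record and to a RefSeq transcript, and 1 to a RefSeq transcript alone. At 72 h all 43 probes of the cDNA record alone had a positive change, with a median of 0.35 and 3 called higher, while of the 29 tied to both 26 had a negative change, with a median of -0.38 and 2 called lower. At 24 h the medians were 0.19 and -0.42, and at 3 h -0.12 and -0.53. The medians per array over the 29 probes ran from 0.29 to 0.74 at 72 h, against 0.42 to 1.26 in untreated spleens, which overlapped. The 1 probe that stands for Sdha above is among those 29 (-0.12 at 24 h, -0.51 at 72 h, adjusted p = 0.76 and 0.079). Whether every 1 of the 73 probes reads Sdha RNA was not tested, and no direction is given for this gene.

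**Figure D5:**
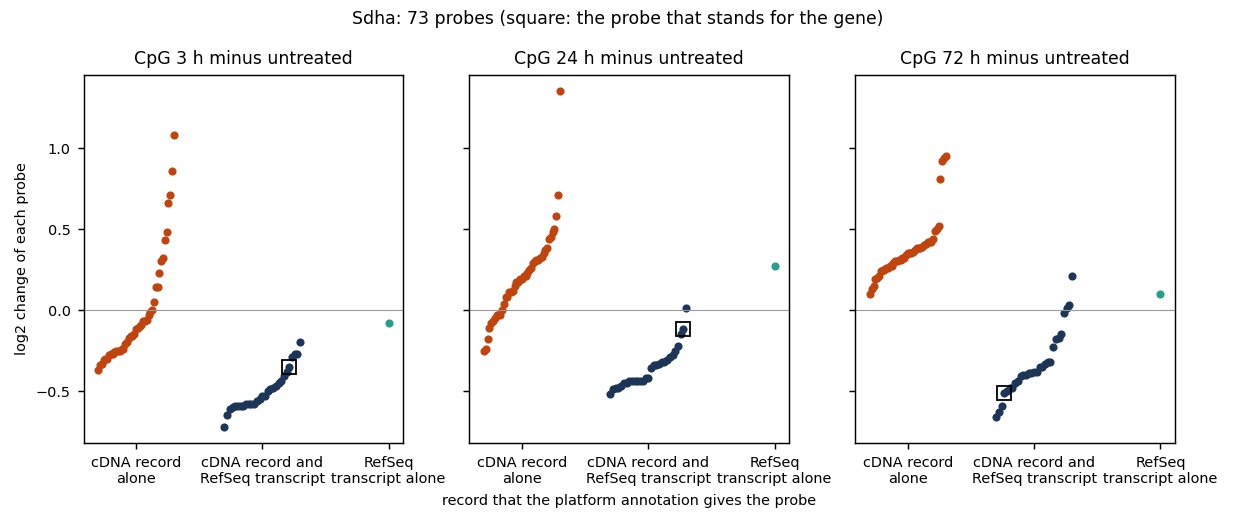
Log2 change against untreated BALB/c spleens (vertical axis) of each of the 73 probes annotated to Sdha at 3 h, 24 h and 72 h, in order of size within the record that the annotation gives; the square marks the probe that stands for the gene. At 72 h the 43 probes of the cDNA record alone are all above 0 and 26 of the 29 tied to a RefSeq transcript too are below 0.

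Other members had several probes too, 23 in all with Sdha. Among those called at 24 h or 72 h against untreated spleens, the other probes of Ndufaf5 (0.63 at 24 h), Sdhb (0.52 at 24 h), Cox5b (0.67 at 72 h) and Ndufa5 (0.50 and 0.60 at 24 h) ran the same way. Cox6b1, Cox6a1 and Sdhc, called in other comparisons, also have another probe, whose changes are not given here. The other Ndufs4 probes gave smaller changes at 24 h, 0.25 and 0.35 against 0.52, and those of Ndufaf7 gave 0.36 and 0.73 at 72 h. A second probe ran against the first for Ndufb2 at 72 h (0.35 and -0.68) and for Ndufs3 in CpG against control ODN (-0.10 and 0.78), where the second was called and the first was not. A second probe of the acyl carrier Ndufab1 had 1.04 at 72 h and was called, where the first had 0.39.

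Genes that work beside the complexes were counted for comparison. Of all genes tested, 6.83% were higher and 1.62% lower at 24 h, and 6.43% higher and 4.15% lower at 72 h. Of 9 electron carriers measured 4 were higher at 24 h and 4 at 72 h, with median changes of 0.68 and 0.35. They included cytochrome c itself, Cycs (0.85, adjusted p = 0.0013 at 24 h and 0.62, 0.021 at 72 h), Cyc1, the cytochrome of complex III that the symbol rule does not reach (0.85, 0.0051 and 0.68, 0.027), and Etfb, which delivers electrons from fatty acid oxidation (0.98, 0.00059 and 0.63, 0.028). Cycs was also higher at 3 h (0.66, 0.010) and 9 h (0.78, 0.0029). Of 76 genes of the mitochondrial ribosome, which translates the mitochondrially encoded subunits, 28 were higher at 24 h and 20 at 72 h, none was lower, and the medians were 0.41 and 0.38. Examples are Mrps15 (0.99, adjusted p = 9.8e-05), Mrpl42 (0.97, 8.6e-05) and Mrpl1 (0.97, 0.0002) at 24 h, and Mrpl40 (0.96, 0.0015) at 72 h. Of 71 genes of the cytosolic ribosome 6 and 3 were higher, shares near those of all genes, with medians of 0.05 and -0.03.

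The citric acid cycle list had 3 and 2 of 16 genes higher at 24 h and 72 h (medians 0.27 and 0.23), among them Dld at 24 h (0.56, adjusted p = 0.0055) and Pdhx at both (0.52, 0.047 and 0.59, 0.022), which belong to pyruvate dehydrogenase, and Idh3a at 72 h (0.60, 0.036). Of 14 carriers, porins and related proteins 4 and 2 were higher, among them the porins Vdac2 at 24 h (0.61, 0.0057) and Vdac1 at 72 h (0.57, 0.022), the ATP/ADP carriers Slc25a5 (0.80, 0.016) and Slc25a4 (0.61, 0.027) at 24 h and the phosphate carrier Slc25a3 (0.53, 0.044) at 72 h. Of 29 assembly factors outside the symbol rule 2 and 1 were higher (6.90% and 3.45%, near or below the 6.83% and 6.43% of all genes), Tmem126b (0.60, 0.0062) and Bcs1l (0.56, 0.012) at 24 h and Cox11 (0.67, 0.018) at 72 h, and the copper chaperone Sco1 of complex IV rose at 3 h (1.04, 0.00097) and 9 h (0.86, 0.0092). Of 16 regulators of mitochondrial gene expression 1 was higher, a share of 6.25% and so near that of all genes, and 1 lower at 24 h: Tfb2m, a factor of mitochondrial transcription, rose by 1.00 (adjusted p = 0.0006), after 2.55 at 3 h (3.4e-12) and 1.86 at 9 h (8.8e-09), and Nrf1, the factor whose letters were searched above, fell by 0.60 at 24 h (adjusted p = 0.032). Tfb1m, a relative of Tfb2m, was higher at 72 h (0.70, 0.025). None of the 13 mitochondrially encoded subunits had a named probe, so the complexes' other genome is not seen here.

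Markers of spleen cell types moved at the same times. Beside their counts stand 6.83% of all genes higher and 1.62% lower at 24 h, and 6.43% higher and 4.15% lower at 72 h. The mean over 8 monocyte and macrophage genes ran from 2.35 to 2.96 at 24 h and 2.33 to 2.88 at 72 h, against 1.61 to 2.28 in untreated spleens, with 4 and 3 of 8 genes called higher. The mean over 10 erythroid genes was 3.02 to 3.93 at 24 h (3 lower) and 3.97 to 4.99 at 72 h (1 higher), against 4.02 to 4.33 in untreated spleens. The 8 T-cell genes averaged 1.30 to 2.12 and 1.33 to 1.59, against 1.58 to 2.25, with 0 and 3 lower, and the 8 B-cell genes 2.55 to 3.33 and 2.09 to 2.83, against 2.57 to 3.42, with 0 and 2 lower.

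The 11 neutrophil genes averaged 2.27 to 3.34 and 2.20 to 3.39 at 24 h and 72 h, against 1.91 to 2.60, with 2 and 3 higher. The 12 genes of dividing cells averaged -0.57 to 0.15 at 24 h, within reach of the untreated -0.43 to 0.09, and 0.31 to 1.07 at 72 h, with 0 and 1 called higher. Muscle is rich in mitochondria, and muscle and fat could both be cut with a spleen. Their lists of 12 and 8 genes averaged -0.32 to 0.12 and 0.71 to 0.90 at 24 h, and -0.30 to -0.13 and 0.52 to 0.78 at 72 h, against -0.26 to -0.03 and 0.49 to 0.96 in untreated spleens. The 9 pancreas genes averaged 0.58 to 5.11 at 24 h, 0.40 to 4.25 at 72 h and 0.59 to 5.61 in untreated spleens, with none called. Ratios have no zero, so no marker can be listed as absent. The part of monocyte, erythroid and lymphocyte markers in the members' changes was not tested.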

How the data were processed

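The deposited log2 ratios were used as the authors left them. Per the series design text, the authors worked in mAdb and BRB ArrayTools, corrected background, removed flagged values and spots whose signals both fell below 100, converted ratios to log2, normalized them by lowess and kept genes seen on more than 70% of the arrays. Each ratio is spleen (Cy5) over Universal Mouse Reference RNA (Cy3), per the labels. The genome build of the probe design is not named in the labels or headers.

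From these values each array's median, between -0.0178 and 0.0197, was subtracted. Platform annotation gave 26926 probes 1 gene symbol, 203 several and 9478 none, and unnamed or multiply named probes were left out of the tests. The probe with the most values stood for its gene (the first listed at a tie). Genes on more than 70% of the arrays of a fit were tested with limma 3.58.1 (R 4.3.3; lmFit, eBayes), in 1 fit of the BALB/c arrays (15263 genes), 1 of the C57BL/6 and TNF-KO arrays (14950) and 1 of all arrays for the strain comparison (15261). P-values were adjusted over all genes of a fit by the Benjamini-Hochberg method, and adjusted p under 0.05 was called. All changes are differences of log2 ratios, ± is the SE unless SD is written, and intervals are 95%.

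Members, pathway lists, markers and motifs were chosen with earlier results of these data known. Named genes are the members called in a comparison, with values per array for at most 5 of smallest adjusted p, the 2 of smallest p in each complex at 3, 9, 24 and 72 h, the isoform pairs of complex IV, members whose probes disagree where a probe was called, and up to 3 of smallest p in each pathway list. Other genes were named after their values were seen. On data simulated for CpG ODN at 3 h over 15263 genes, the fit recovered 75% of 100 genes changed by 1 and 98% of 100 changed by 2 on the log2 scale, with 13 false calls. Changes below 1, the size of most changes of the members, were not simulated, so recovery at that size is unknown. Replicate numbers did not pair the arrays: 48 correlations of same-numbered deviations ran from -0.354 to 0.423 with a median of 0.072. Alternatives were the centring, the presence filter, all probes, arrays scaled to the same spread, array weights, replicate and run blocks, and leaving out each array.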

Additional observations from a re-analysis of the deposited data

Results flagged for a closer look

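In groups of 4 to 6 arrays, 240 sets of values (the means by complex and the members given per array, by group) were checked for 1 array far from its group by Dixon's criterion, which chance passes in about 1 of 20. It was passed in 9. Replicate 4 of 24 h was low in 4 of them: the mean over all members was -0.25 there (0.15 to 0.22 on the other arrays), the mean of complex I -0.21 (0.26 to 0.27), Ndufa12 -0.28 (0.08 to 0.12) and Cox6a2 -2.28 (-1.76 to -1.73). Replicate 4 of control ODN had a complex III mean of -0.34 (-0.06 to -0.05). Replicate 4 of CpG-treated TNF-KO spleens had Cox5a at -0.31 (0.03 to 0.08). Ndufv3 was -0.31 on replicate 2 of 72 h (-0.57 to -0.53), Ndufa8 was -0.96 on replicate 2 of CpG-treated C57BL/6 control spleens (-0.58 to -0.55), and Ndufv2 was -0.03 on replicate 1 of untreated BALB/c spleens (-0.58 to -0.39).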

How the results depend on the processing

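Members called at 24 h numbered 25, against 12 with the replicate block and 0 with array run as a block, and at 72 h 14, against 60 with array weights. With array weights 5 were called at 3 h (2 without weights), 5 at 9 h (3), 6 after control ODN (1), 19 in CpG against control ODN (10) and 4 in C57BL/6 control mice (2). With array run as a block 1 was called at 3 h, 1 at 9 h and 1 in C57BL/6 control mice, and in that fit 3 genes called at 24 h turned in sign: Atp5g3 (-0.22), Cox7b (-0.09) and Ndufa5 (-0.07). The call after control ODN was lost with all probes tested, with arrays scaled to the same spread and with the replicate block (0 each). With genes present on every array 1 was called at 3 h, because Ndufaf4, with values on 49 of the 50 arrays, was not tested there. Within the first array run 4 were called at 1 h. The difference of member means at 72 h was 0.21 over all member probes, of which 73 read Sdha, and 0.31 over 1 probe per gene. The cause of the other shifts was not tested.

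Leaving out single arrays gave 1 to 2 calls at 3 h, 1 to 3 at 9 h, 6 to 42 at 24 h, 5 to 23 at 72 h, 0 to 7 after control ODN, 3 to 15 in CpG against control ODN and 1 to 3 in C57BL/6 control mice. It gave 0 to 17 for 24 h against 9 h and 0 to 7 for 72 h against control ODN. Here and above, counts given without the share of all genes do not tell a shift of the members from one of all genes. The replicate block left 10 calls at 72 h, 9 in CpG against control ODN and 2 in C57BL/6 control mice, and 0 at 0.5 h and 1 h and in the TNF-KO and strain comparisons; at 3 h it gave 2 and at 9 h 3, though partly of other genes. Among single called genes the run block kept 1 call, lost 28 and reversed 3, the replicate block kept 36 and lost 21, array weights lost 1, testing all probes 2, a common spread 3, and centring and the presence filters 0. Over all 995 such values, most from leaving out single arrays, 754 kept direction and call and 238 direction only. Ratios to a reference mixture do not give the signal behind a value, so dim spots could not be told from bright ones.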
